A study of Mus musculus with 5 samples.

Results

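The genes described here act in retinoid metabolism and retinoic acid signalling. They are 9 genes named by their symbols, Stra6, Rdh10, Dhrs3, Aldh1a2, Crabp1, Crabp2, Cyp26a1, Rarb and Rarg, out of 18193 genes measured on the arrays. A gene was read from the probe set that carried its symbol alone and had the highest mean over the arrays. Of the 9 genes, 7 had 1 such probe set, whereas Rdh10 and Rarg had 2 each, which gives 11 probe sets. RNA came from E14 mouse embryonic stem cells grown with leukaemia inhibitory factor on a feeder layer of mouse embryo fibroblasts. The 2 wild-type (WT) samples and the 3 samples of genotype Trip12 mut/mut shared this culture, and each was hybridised to its own array. Trip12 encodes a ubiquitin ligase. The kind of mutation, how many clones were used, and whether feeder cells were taken out before RNA extraction are not given in the sources used here. Values are log2 values per probe set, so a difference of 1 is a factor of 2.

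Retinoic acid is made in the cell from vitamin A. STRA6 takes up retinol from its carrier in blood, RDH10 oxidises retinol to retinaldehyde, DHRS3 turns retinaldehyde back into retinol, and ALDH1A2 oxidises retinaldehyde to retinoic acid. CRABP1 and CRABP2 bind retinoic acid in the cytoplasm, CYP26A1 degrades it, and the receptors RARB and RARG, paired with RXR proteins, switch genes on when they bind it. In embryonic stem cells retinoic acid is a widely used differentiation signal, and Cyp26a1 and Rarb are textbook direct targets of its receptors.

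The promoter windows of Cyp26a1, Rarb and Crabp1 are printed here because Cyp26a1 and Crabp1 had the largest differences, and Cyp26a1 and Rarb share a receptor element but not a pattern of values. Each window runs from 250 bases before to 50 bases after the RefSeq start site, 5′ to 3′ along the gene, in build GRCm38.p6. Capitals mark the half-sites of a direct repeat. The Cyp26a1 window is chr19:37697558-37697857 on the plus strand, the Rarb window chr14:16575427-16575726 on the minus strand and the Crabp1 window chr9:54764498-54764797 on the plus strand.
Cyp26a1: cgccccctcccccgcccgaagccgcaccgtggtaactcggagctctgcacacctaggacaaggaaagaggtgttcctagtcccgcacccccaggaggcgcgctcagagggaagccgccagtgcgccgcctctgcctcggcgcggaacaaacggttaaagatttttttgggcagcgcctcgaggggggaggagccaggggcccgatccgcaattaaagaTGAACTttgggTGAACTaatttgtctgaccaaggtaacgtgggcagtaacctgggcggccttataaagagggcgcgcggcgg
Rarb: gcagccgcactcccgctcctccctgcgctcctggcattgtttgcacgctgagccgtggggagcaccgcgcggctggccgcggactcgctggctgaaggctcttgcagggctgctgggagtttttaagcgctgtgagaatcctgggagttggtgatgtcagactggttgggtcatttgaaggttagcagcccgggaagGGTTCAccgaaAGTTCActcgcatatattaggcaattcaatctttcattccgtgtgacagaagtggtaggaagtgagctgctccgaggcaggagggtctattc
Crabp1: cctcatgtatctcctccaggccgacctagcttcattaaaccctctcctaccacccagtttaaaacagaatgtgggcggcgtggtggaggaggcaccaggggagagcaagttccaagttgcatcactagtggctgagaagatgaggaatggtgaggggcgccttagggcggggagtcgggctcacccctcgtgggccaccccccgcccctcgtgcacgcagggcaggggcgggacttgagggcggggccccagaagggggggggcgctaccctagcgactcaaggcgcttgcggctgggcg

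The search took any pair of the half-sites AGGTCA or AGTTCA or GGGTCA or GGTTCA in the same orientation, on either strand, with 1, 2 or 5 bases between them. RefSeq windows were found for 7 of the 9 genes, 13 windows in all, and 2 of them held such a repeat. In Cyp26a1 it read on the opposite strand to the gene and lay from position -32 to -16 relative to the start. In Rarb it read on the strand of the gene and lay from -53 to -37. Both repeats had a spacer of 5 bases, which is the classical element of the retinoic acid receptors. A spacer of 5 was found in 32 of 32851 windows of that length over all genes (0.0974%), a spacer of 1 in 0.222% and a spacer of 2 in 0.268%, and no window held more than 1 of these spacers. The Crabp1 window held none of the half-sites. A match describes letters only and was not tested for binding.

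The arrays have to be described before the genes, because 1 mutant array read like WT. Arrays are called WT 1 and 2 and mutant 1, 2 and 3 after the replicate numbers of the labels. The brightest of the 7 Trip12 probe sets gave 10.17 and 10.25 in WT, 10.18 in the array labelled mutant 1, and 12.09 and 12.57 in mutants 2 and 3. It was thus not lower in the mutants, and it was higher in mutants 2 and 3. Where it lies relative to the mutation is unknown, and the other Trip12 probe sets are not described here. In each pair of arrays 10.3% to 21.1% of values were identical, and 20.5% were between the WT arrays. Between the WT arrays 0 of 45037 probe sets differed by more than 2-fold, and 9 did between mutants 2 and 3. The array labelled mutant 1 differed that much from either WT array at 0 probe sets, against 293 to 545 for mutants 2 and 3. Differences are therefore given over all 5 arrays as labelled and without the array labelled mutant 1. The second comparison sets an array aside for its values, so its p-values are too favourable. Stem cell markers were bright on every array, with Pou5f1 between 12.25 and 12.48 and Sox2 between 11.18 and 11.59. The labels call the samples of a group biological replicates but do not say whether they were separate cultures or clones, so p-values measure the spread between these samples.

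Over all 5 arrays none of the 9 genes passed (limma, 0 of 9; 0 had an unadjusted p below 0.05), and neither did any other gene (0% of 18193; 214 had an unadjusted p below 0.05). Without the array labelled mutant 1 again 0 of 9 and 0% of all genes passed, with 3 of 9 below an unadjusted p of 0.05, beside 3730 of all 18193 genes. When probe sets below the overall median of 5.52 were removed as well, 6 of the 9 genes could be tested, 1 was lower (Cyp26a1) and 1 was higher (Crabp1). In that comparison 4.64% of 11626 genes passed, 1.34% lower and 3.29% higher. Of the 6 genes 3 had an unadjusted p below 0.05, beside 3349 of the 11626. Stra6, Aldh1a2 and Rarb lay below that median on every array and were not tested there. The median difference of the 9 genes was -0.06 over all 5 arrays and -0.09 without the array labelled mutant 1, beside 0.02 and 0.02 for all genes.

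**Figure D1:**
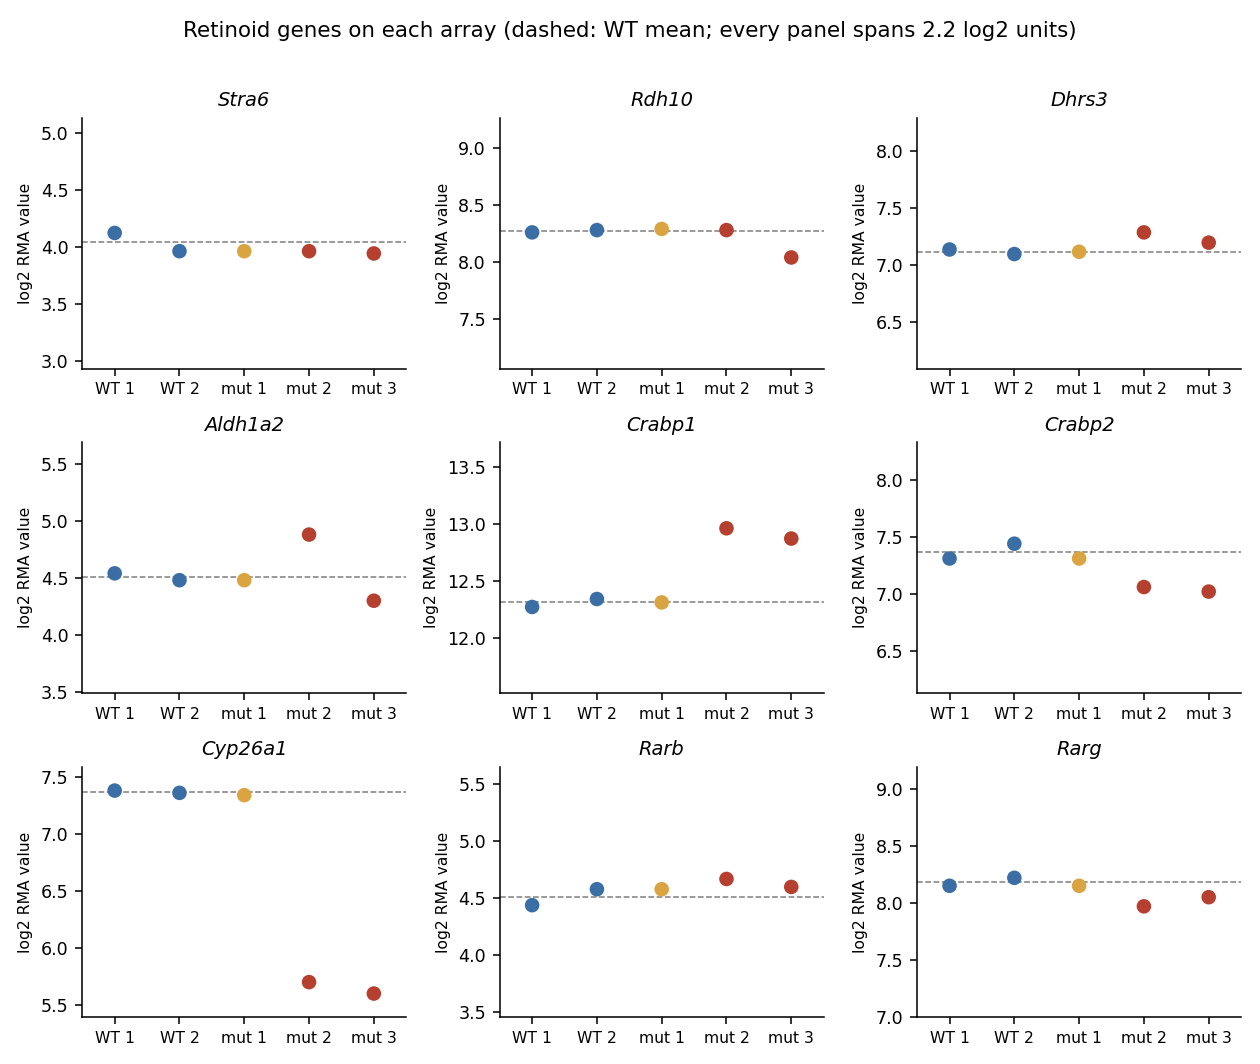
Log2 value (y axis) of each of the 9 retinoid genes on each array (x axis), blue for WT, yellow for the array labelled mutant 1 and red for mutants 2 and 3; the dashed line is the WT mean and all panels span the same log2 range. Cyp26a1 lies at 7.34 to 7.38 on 3 arrays and at 5.70 and 5.60 on the others, Crabp1 at 12.27 to 12.34 and at 12.96 and 12.87. On the probe sets shown, the brighter where there were 2, the other 7 genes stay within 0.37 of their WT mean.

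Cyp26a1, the enzyme that clears retinoic acid, showed the largest difference of the 9 genes. Its probe set (1419430_at, gene on chromosome 19) read 7.38 and 7.36 in WT, 7.34 in the array labelled mutant 1, 5.70 in mutant 2 and 5.60 in mutant 3. The groups did not overlap, but the array labelled mutant 1 missed the WT range by only 0.03, whereas mutants 2 and 3 were at 0.314 and 0.294 of the WT mean. Both of these values lay close above the overall median of 5.52. Without a detection call, whether the transcript was still detected there is unknown. Over all 5 arrays the mutant mean of 6.21 ± 0.97 (SD, n = 3) was below the WT mean of 7.37 ± 0.01 (SD, n = 2) by a difference of -1.16 (SE 0.60, 95% interval -2.78 to 0.46; limma, adjusted p = 0.748). Setting aside the array labelled mutant 1 gave a difference of -1.72 with an SE of 0.06, a level lower by a factor of 3.29, and limma gave an adjusted p of 0.0785. The adjusted p was 0.0262 once dim probe sets were also removed, and Cyp26a1 fell there with the 22nd most negative of 11626 differences. Cyp26a1 had 1 probe set, so a test over probe sets in place of genes reused the same values and is no separate support. In limma it gave an adjusted p of 0.0466 with the same array and dim probe sets left out. With only that array left out it gave 0.116.

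The genes whose pattern over the 5 arrays came closest to Cyp26a1 were Gm9564, Tmem30b, Kcnk1, Dnmt3b and 1700108F19Rik. Likeness was the root mean square difference between a gene's deviations from its own WT mean and those of Cyp26a1, taken over 256 genes with a group mean at or above the median and an SD of at least 0.5. It was 0.046 for Gm9564, 0.078 for Tmem30b, 0.080 for the potassium channel gene Kcnk1, and 0.115 for both Dnmt3b and 1700108F19Rik. Dnmt3b, a de novo DNA methyltransferase gene, read 12.36 and 12.34 in WT, 12.37 in the array labelled mutant 1, and 10.54 and 10.80 in mutants 2 and 3. Like Cyp26a1, all of them were close to WT in the array labelled mutant 1 and low on both other mutant arrays. This follows from how they were chosen.

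The genes of the cytoplasmic binding proteins had differences of opposite sign. Crabp1 (1448326_a_at, chromosome 9) read 12.27 and 12.34 in WT, 12.31 in the array labelled mutant 1, 12.96 in mutant 2 and 12.87 in mutant 3. The array labelled mutant 1 lay between both WT arrays, and the other mutant arrays were above them, at 1.58 and 1.48 times the WT mean. The difference was 0.41 over all 5 arrays (SE 0.22; limma, adjusted p = 0.748) and 0.61 without the array labelled mutant 1 (SE 0.06, a factor of 1.53; adjusted p = 0.0804). Once dim probe sets were also removed, Crabp1 rose with an adjusted p of 0.0467 over genes in limma, but the same test over probe sets gave 0.0627. Its rank there was 604 among the 11626 differences, counted from the highest.

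Crabp2 (1451191_at, chromosome 3), which carries retinoic acid to the nuclear receptors, read 7.31 and 7.44 in WT, 7.31 in the array labelled mutant 1, 7.06 in mutant 2 and 7.02 in mutant 3. Mutants 2 and 3 were below all other arrays, at 0.807 and 0.782 of the WT mean. The difference was -0.24 over all 5 arrays (SE 0.11; limma, adjusted p = 0.748) and -0.33 without the array labelled mutant 1 (SE 0.07, 95% interval -0.54 to -0.12; adjusted p = 0.132). It did not pass with dim probe sets removed either (limma, adjusted p = 0.0947).

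**Figure D2:**
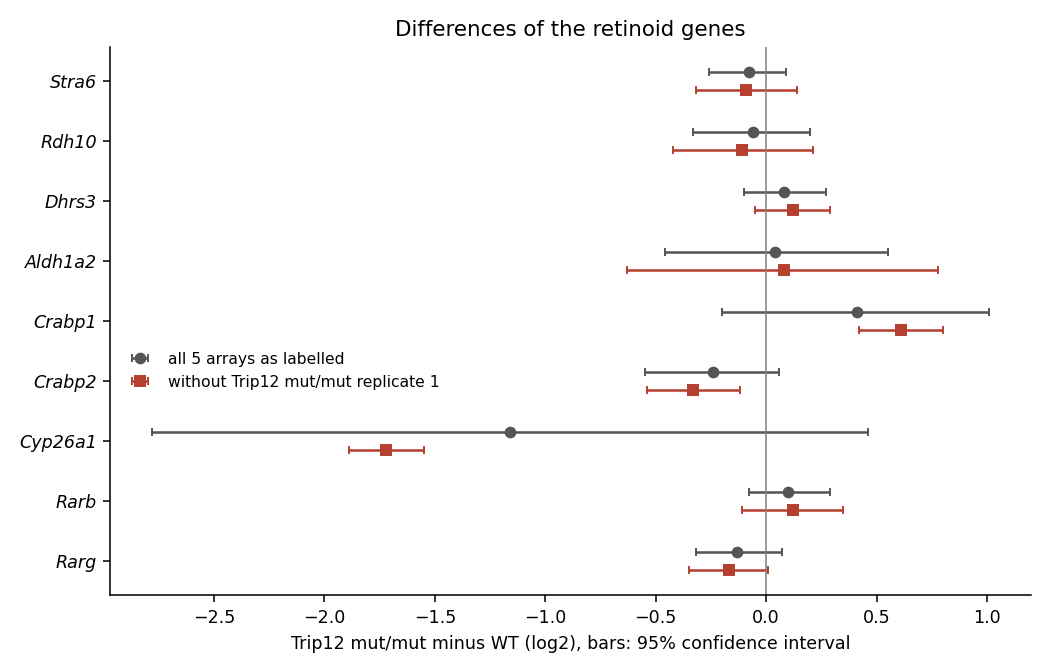
Difference between Trip12 mut/mut and WT on the log2 scale (x axis) with its 95% confidence interval from limma for each of the 9 retinoid genes (y axis), grey over all 5 arrays and red without the array labelled mutant 1. Over all 5 arrays each interval spans 0, and without that array the intervals of Cyp26a1 (-1.89 to -1.55), Crabp1 (0.42 to 0.80) and Crabp2 (-0.54 to -0.12) do not.

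The enzymes that make retinaldehyde and retinoic acid showed small differences, except on the second Rdh10 probe set. For Rdh10, which catalyses the first step, the brighter probe set (1426968_a_at) read 8.26 and 8.28 in WT, 8.29 in the array labelled mutant 1, 8.28 in mutant 2 and 8.04 in mutant 3. Only mutant 3 stood below the others. The second Rdh10 probe set (1460632_at) read 6.51 and 6.30 in WT, 6.44 in the array labelled mutant 1, and 5.97 and 5.90 in mutants 2 and 3, so that here both of these arrays were low. Over all 5 arrays the difference was -0.06 on the first and -0.30 on the second. Without the array labelled mutant 1 it was -0.11 on the first (SE 0.10; limma over probe sets, adjusted p = 0.612) and -0.47 on the second (SE 0.10; adjusted p = 0.196). The probe sets thus disagreed in mutant 2, and neither difference passed.

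Dhrs3, whose product counteracts RDH10, read 7.14 and 7.10 in WT, 7.12 in the array labelled mutant 1, 7.29 in mutant 2 and 7.20 in mutant 3. Both of the last 2 arrays were above WT by a small amount, with a difference of 0.08 over all 5 arrays and 0.12 without the array labelled mutant 1 (SE 0.06; limma, adjusted p = 0.366). Aldh1a2, the enzyme of the last step, read 4.54 and 4.48 in WT, 4.48 in the array labelled mutant 1, 4.88 in mutant 2 and 4.30 in mutant 3. Mutant 2 was the highest array and mutant 3 the lowest, so the mutant arrays did not share a direction. The Aldh1a2 difference was 0.04 over all 5 arrays and 0.08 without the array labelled mutant 1. Its 95% interval ran from -0.63 to 0.78 in the latter, the widest of the 9 genes. Stra6, the retinol transporter, read 4.12 on WT 1 and between 3.94 and 3.96 on the other 4 arrays, so its groups overlapped (difference -0.08 over all 5 arrays and -0.09 without the array labelled mutant 1).

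The retinoic acid receptor genes differed little between the groups. Rarg (1419415_a_at) read 8.15 and 8.22 in WT, 8.15 in the array labelled mutant 1, 7.97 in mutant 2 and 8.05 in mutant 3. Its second probe set (1419416_a_at) read 5.87 and 6.01 in WT, 5.82 in the array labelled mutant 1, and 5.83 and 5.71 in mutants 2 and 3. Both probe sets had a difference of -0.17 without the array labelled mutant 1 (limma over probe sets, adjusted p = 0.319 and 0.477), and of -0.13 and -0.16 over all 5 arrays. Rarb read 4.44 and 4.58 in WT, 4.58 in the array labelled mutant 1, 4.67 in mutant 2 and 4.60 in mutant 3. Its difference was 0.10 over all 5 arrays, and without the array labelled mutant 1 it was 0.12 (SE 0.07, 95% interval -0.11 to 0.35; limma, adjusted p = 0.502). Its direct repeat, printed above beside that of Cyp26a1, thus stood in a gene with a dim signal on every array. Of the 31 genes with such a spacer of 5 in a window, 11 were measured, with a median difference of 0.00 without the array labelled mutant 1. Their differences ran from -1.72 (Cyp26a1) to 0.12 (Rarb), and of the 4 tested with dim probe sets removed 1 passed, Cyp26a1, beside 4.64% of all genes.

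Counted over all 5 arrays, the groups did not overlap for 1 of the 9 genes, Cyp26a1, beside 12.0% of all genes. Without the array labelled mutant 1 they did not overlap for 6 of the 9, beside 44.2% of all genes. These 6 were Cyp26a1, Crabp1, Crabp2, Dhrs3, Rarb and Rarg. Both counts read 1 probe set per gene, the brighter where there were 2. On the second Rarg probe set the groups did not overlap over all 5 arrays either. On the second Rdh10 probe set they overlapped over all 5 arrays but not without the array labelled mutant 1. On the array labelled mutant 1 itself, 7 of the 9 genes lay within the range of the WT arrays, and Cyp26a1 and Rdh10 missed it by 0.03 and 0.01.

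Other genes of retinoid metabolism and binding did not pass in any of these comparisons. Of 26 listed genes 23 were measured, and 0 passed over all 5 arrays, 0 without the array labelled mutant 1, and 0 of 12 tested with dim probe sets removed (limma; 1 of the 12 had an unadjusted p below 0.05, beside 3349 of all 11626 genes). Their median difference without the array labelled mutant 1 was 0.08. Cyp26b1, a sister enzyme of Cyp26a1, read 8.57 and 8.57 in WT, 8.62 in the array labelled mutant 1, 8.72 in mutant 2 and 9.09 in mutant 3. All 3 mutant arrays were above WT, opposite in direction to Cyp26a1 (difference 0.24 over all 5 arrays; 0.33 without the array labelled mutant 1, SE 0.15; limma, adjusted p = 0.371). The retinol-binding gene Rbp7 had a difference of 0.44 (SE 0.14), the retinol saturase Retsat 0.15 (SE 0.10) and the fatty acid and retinoid binding gene Fabp5 0.16 (SE 0.08), each without the array labelled mutant 1. These differences were, over all 5 arrays, 0.29 for Rbp7, 0.12 for Retsat and 0.11 for Fabp5.

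Other receptors and their cofactors did not pass either. Of 14 listed genes 12 were measured, and in limma 0 passed over all 5 arrays, 0 without the array labelled mutant 1 and 0 of 11 with dim probe sets removed (2 of the 11 had an unadjusted p below 0.05, beside the same 3349 of 11626). Their median difference was -0.03 without the array labelled mutant 1. In that comparison the RAR partner Rxrb had a difference of -0.37 (SE 0.13) and Tbl1x, a subunit of a corepressor complex, one of -0.43 (SE 0.17). The coactivator Ncoa1 and the fatty acid receptor Ppard each had a difference of 0.39 (SE 0.15 and 0.07). Over all 5 arrays the differences were -0.27 for Rxrb, -0.28 for Tbl1x, 0.29 for Ncoa1 and 0.25 for Ppard. These are from the brightest probe set of each gene. With all probe sets of a gene averaged, they were -0.12 for Tbl1x, 0.18 for Ncoa1 and 0.12 for Ppard. Rxrb was again at -0.27. Rara, the third retinoic acid receptor, read between 6.21 and 6.26 on all 5 arrays.

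Among genes known to respond to retinoic acid most differences were positive, opposite in sign to that of Cyp26a1. Of 23 listed genes 21 were measured, and 6 of these were below the overall median on all arrays (6293 of all 18193 genes). Without the array labelled mutant 1, 16 of the 21 had a positive difference, dim genes included (9985 of all 18193 genes). Their median difference was 0.15 over all 5 arrays and 0.22 without the array labelled mutant 1, beside 0.02 for all genes in both. In limma 0 passed over all 5 arrays, 0 without the array labelled mutant 1, and 1 of 14 with dim probe sets removed, which was higher, beside 3.29% of all genes higher. That gene was Nr2f1, a nuclear receptor gene. It read 6.29 and 6.34 in WT, 6.06 in the array labelled mutant 1, 7.54 in mutant 2 and 7.25 in mutant 3, and rose by 1.08 with the array labelled mutant 1 and dim probe sets removed (SE 0.12; limma, adjusted p = 0.0426). Its difference was 0.63 over all 5 arrays (limma, adjusted p = 0.748). The related Nr2f2 had a difference of 0.80 (adjusted p = 0.0585) and the homeobox genes Meis1 and Meis2 had 0.98 (adjusted p = 0.0530) and 0.42 (adjusted p = 0.113) with that array and dim probe sets removed, against 0.55, 0.59 and 0.27 over all 5 arrays. These values are from the brightest probe set of each gene. With all probe sets of a gene averaged, the differences over 5 arrays were 0.30 for Nr2f2, 0.40 for Meis1 and 0.26 for Meis2. That of Nr2f1 was again 0.63. On the brightest probe sets, mutants 2 and 3 were above all other arrays for each of these 4 genes.

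**Figure D3:**
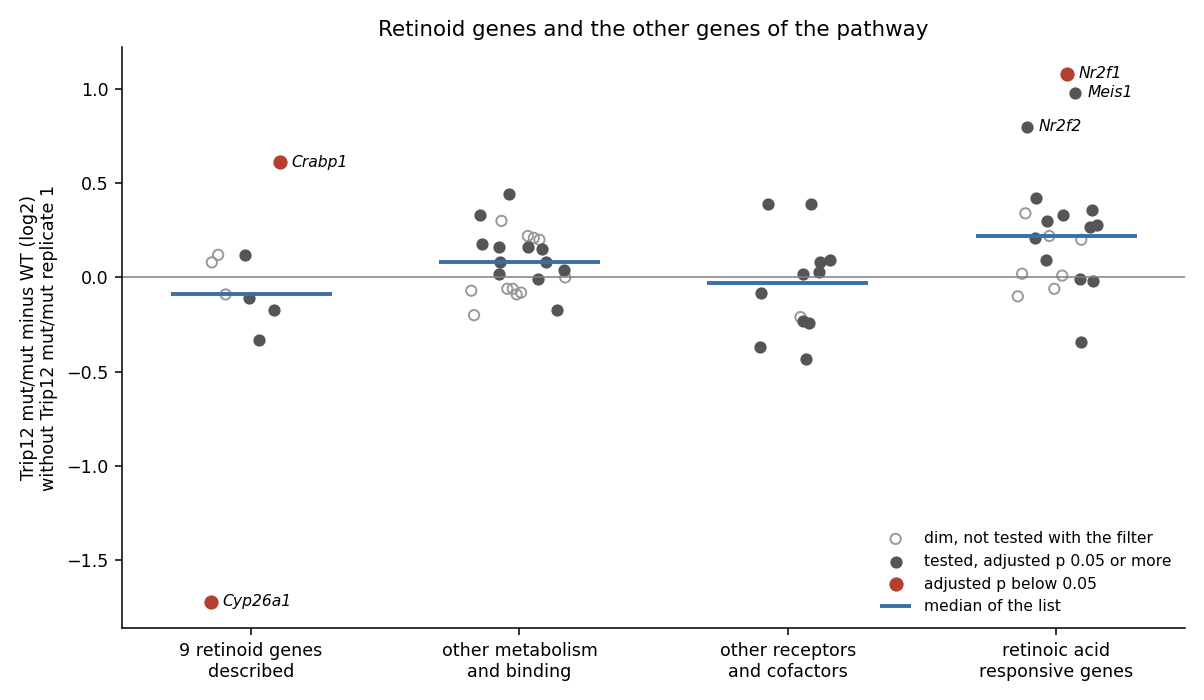
Difference between Trip12 mut/mut and WT on the log2 scale without the array labelled mutant 1 (y axis), 1 point per gene, for the 9 retinoid genes and 3 lists of other pathway genes (x axis); red points passed limma with dim probe sets removed, filled grey points did not, open points were too dim to be tested there, and blue lines are medians. Cyp26a1 at -1.72 lies far below all others, and Nr2f1 at 1.08 is the highest.

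Markers of fibroblasts, the feeder cells, were higher on the same 2 mutant arrays. The mean of 20 measured markers was 10.38 and 10.39 in WT, 10.36 in the array labelled mutant 1, and 10.88 and 10.85 in mutants 2 and 3. Of these markers 19 had a positive difference over all 5 arrays, 6 of 19 tested rose with the array labelled mutant 1 and dim probe sets removed (beside 3.29% of all genes), and 1 was below the median on all arrays. The mean of 10 stem cell markers was 11.37 and 11.38 in WT, 11.37 in the array labelled mutant 1, and 11.22 and 11.35 in mutants 2 and 3, and 1 of the 10 fell (beside 1.34% of all genes). It was Utf1, which read 10.92 and 10.98 in WT, 10.93 in the array labelled mutant 1, and 10.23 and 10.07 in mutants 2 and 3 (difference -0.54 over all 5 arrays, limma, adjusted p = 0.748; -0.80, SE 0.09, adjusted p = 0.0422 with that array and dim probe sets removed). Esrrb, of the same list, had a difference of the opposite sign. It read 8.74 and 8.78 in WT, 8.68 in the array labelled mutant 1, and 9.26 and 9.39 in mutants 2 and 3 (0.35 over all 5 arrays, limma, adjusted p = 0.748; 0.57, SE 0.08, adjusted p = 0.0501 in the comparison Utf1 passed). That of 13 extraembryonic endoderm markers was 5.86 and 5.92 in WT, 5.83 in the array labelled mutant 1, and 5.97 and 5.99 in mutants 2 and 3, with 0 of 8 tested changed in limma (3 had an unadjusted p below 0.05, beside 3349 of all 11626 genes). That of 7 neural markers was 5.64 and 5.62, then 5.61, 5.49 and 5.56, and 4 of the 7 were below the median on all arrays. With the array labelled mutant 1 and dim probe sets removed, 0 of 3 tested passed in limma. Of these 3, 2 had an unadjusted p below 0.05, beside the same 3349 of all 11626 genes. Their differences ran from -0.53 to 0.20, with 2 negative and 1 positive. The part of these cell types in the values of Crabp1, Cyp26a1 or the responsive genes was not tested. In such bulk RNA fewer cells of a type and less RNA per cell cannot be told apart.

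**Figure D4:**
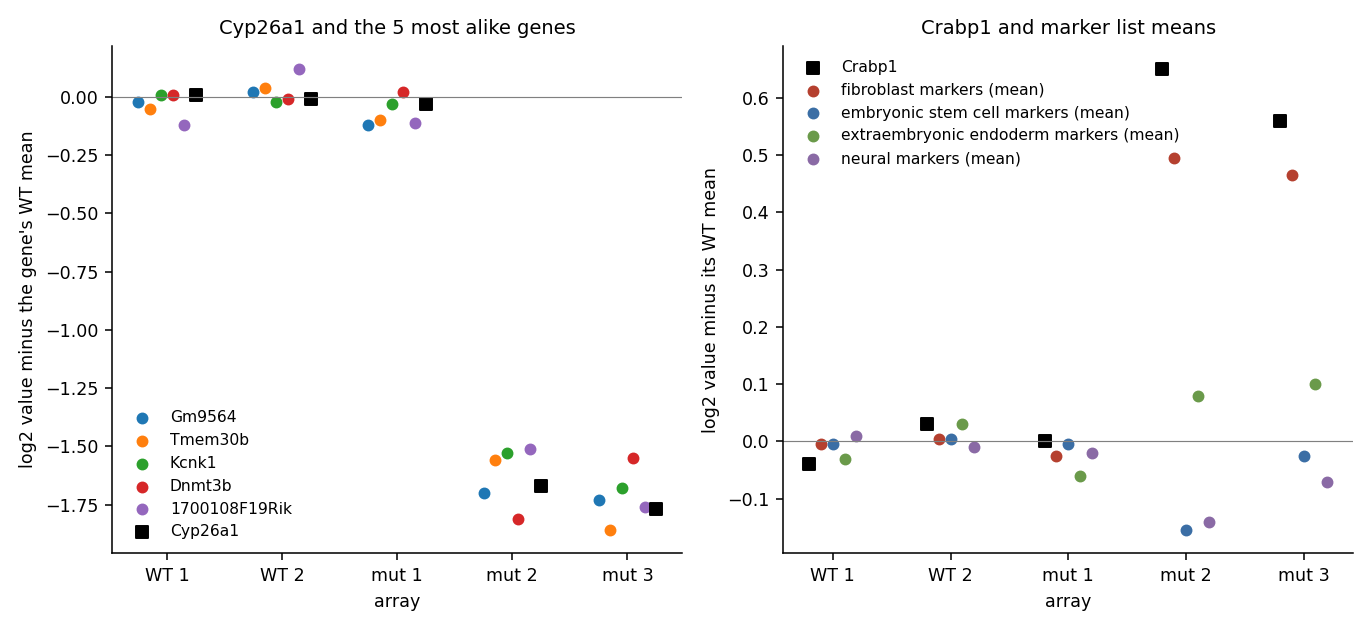
Log2 values minus the WT mean (y axis) on each array (x axis), on the left for Cyp26a1 and the 5 genes with the most alike pattern, on the right for Crabp1 and the means of 4 marker lists. Cyp26a1 and its 5 most alike genes lie near 0 on 3 arrays and low in mutants 2 and 3, where Crabp1 and the fibroblast mean are both high.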

How the data were processed

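RNA of 2 WT and 3 Trip12 mut/mut samples was measured on 5 arrays. The authors deposited log2 values, 1 per probe set and array, from RMA, per the submitters' processing notes. As a method RMA subtracts background, quantile-normalises arrays and combines the probes of a probe set; no version is stated. Array medians lay between 5.51 and 5.55, and RMA gives no detection call. With 5 arrays, precision is limited by their number.

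Of 45101 probe sets, 64 array controls were left out. The platform annotation gave 34945 a single symbol, 932 several and 9160 none; 34741 were matched by gene number to a RefSeq table (GRCm38.p6), whose symbol was used. The test was limma's (version 3.58.1, R 4.3.3; lmFit, then eBayes, two-sided) with genotype as sole term, and with Benjamini-Hochberg adjustment over all genes and a threshold of 0.05; the procedure was tested on simulated data. The filter on dim probe sets kept genes with at least 2 arrays at or above the median of 5.52. Of each pathway list up to 4 genes with the largest absolute difference over 5 arrays and a group mean at or above that median were named; likeness was reported for the 2 members with the largest SD. Nr2f1 and the other named genes follow that rule, while Rara, Utf1 and Esrrb were named after their values were seen. Some listed genes were not analysed here, nor were protein sequences. The members and lists were chosen with earlier results of these data known. Plots used matplotlib 3.10.9 (Python 3.11.15).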

Additional observations from a re-analysis of the deposited data

How the results depend on the processing

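Alternatives were a replicate block, leaving out each array, removing dim probe sets, weighting arrays, quantile normalisation, equal array medians, robust moderation with a trend, and the mean or the most variable of a gene's probe sets. The counts of genes past the threshold stayed at 0 under each, for all genes, the 9 retinoid genes, their probe sets and the 3 pathway lists, except with the array labelled mutant 1 and dim probe sets both left out. There 539 genes passed, 2 of the 9 retinoid genes, 1 of their probe sets and 1 retinoic acid responsive gene. Of 120 differences of the 9 genes under an alternative, 114 kept their direction and side of the threshold. Of the others, 2 passed (Cyp26a1 and Crabp1 in the comparison just named) and 4 changed sign. The smallest limma adjusted p of any gene was 0.748 over all 5 arrays, so keeping that side says little. For the 7 genes with 1 probe set, both choices among probe sets repeat the main difference. Aldh1a2 was at -0.04 with array weights, and ranged from -0.12 to 0.17 as each array was left out. Rdh10 was at 0.02 with the replicate block, ranged from -0.11 to 0.02 as each array was left out, and was at -0.18 with the mean of its probe sets and -0.30 with the more variable one. Without a WT array the lone WT array is assumed to vary like the mutant arrays. The replicate numbers were not shown to pair samples (correlation of deviations -0.04 for number 1 and -0.08 for number 2), and the block changed no count. No WT array has the replicate number of mutant 3, so the block gave the same differences as leaving out mutant 3. It is thus no separate check, and the Rdh10 sign change is counted under both. Spacers of 1, 2 and 5 bases were counted separately. Stra6, Aldh1a2 and Rarb were dim, so a change in them could have been missed. For Crabp1 the closest of 257 genes was Plet1, at 0.181, but Crabp1 itself, with an SD of 0.34, lay below the SD of 0.5 asked of those genes.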
